A study of Mus musculus with 547 samples.

Results

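The 90 cells described here are hepatoblasts of the mouse fetal liver, 54 taken at E10.5 and 36 at E11.5, stages named by embryonic day. They were chosen from the 529 single cells of the study as all cells sorted through the DLK+ gate (a P1 gate in the labels) at these stages that the authors annotated as putative hepatoblast/hepatocyte. DLK1 is a surface protein of hepatoblasts. Cells were sorted by flow cytometry, then picked singly by mouth pipette, and their RNA was amplified by Smart-seq2, a protocol that reads the length of each messenger RNA and does not mark its strand. Liver was the source tissue. The E10.5 and E11.5 cells came straight from embryos, with no treatment named, and strain and sex are not given in the sources used here. The whole study follows hepatoblasts to hepatocytes and bile duct cells from E10.5 to E17.5 in single cells, and DLK+ cells in 18 bulk libraries. The comparison addresses what changes over the first day after the liver bud has formed.

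Hepatoblasts are the shared progenitors of hepatocytes and cholangiocytes. They leave the foregut endoderm, invade the surrounding mesenchyme and proliferate, while blood stem cells begin to settle in the young liver. Hepatocytes later secrete most plasma proteins (albumin and other carriers, clotting factors, complement), build cholesterol and bile acids, burn fatty acids, dispose of nitrogen and store metals.

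Cells of 1 set, the first number after the letter in a cell's title, were not taken as replicates of each other, and reads were summed per set. The E10.5 sets held 16, 22 and 16 cells and the E11.5 sets 16, 13 and 7 cells. Levels are CPM (library size scaled by TMM), and they compare 1 gene between sets. Levels between genes are given per length, as TPM. Gene positions are on GRCm38. A gene was called where edgeR's quasi-likelihood test gave a Benjamini-Hochberg adjusted p below 0.05 over all genes tested. "Rose" and "fell" are used only of called genes, and changes are log2 changes ± SE with n = 3 sets a side. Each SE was derived from the test, as the absolute log2 change divided by the square root of its F statistic. Unless another fit is named, the spread behind the SEs and p-values was estimated over all 42 sums of embryo cells, other stages included. These SEs and p-values therefore do not measure the spread of the compared sets alone. Whether a set stands for 1 litter, 1 sort or 1 plate is not given, so the spread between sets may be technical.

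The cells were alike in depth, with set medians of 959750 to 1120746 reads and 9337 to 9607 detected genes per cell. The sums, which were tested, held 6677905 reads (E11.5 set 3) to 23580186 reads (E10.5 set 2). E10.5 set 3 stood apart from the other E10.5 sets. It gave 35.8 gene reads per ERCC spike-in read, against 52.7 and 50.6 in E10.5 sets 1 and 2 and 54.7 to 63.2 at E11.5. It was the lowest of the 3 E10.5 sets for 233 of the 355 genes that rose (65.6%), and for 37.5% of all 7636 genes with at least 10 CPM at E10.5. What sets it apart was not tested. Counts without it are given for most lists, and lost calls for many of the genes described, but not for every gene.

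The cells carried the markers of hepatoblasts. All 14 genes of the hepatoblast list had reads at both stages, and their summed level ran from 27611 to 35889 CPM at E10.5 and from 68957 to 70706 CPM at E11.5. Most of that sum came from Afp, at a mean of 40464 CPM. Over the 14 genes the median log2 change was 0.28, and 3 were called higher, Alb, Afp and Cdh1. Dlk1, the gene of the sort, was at 1273, 1204 and 1021 CPM in the E10.5 sets and 1049.9, 1186 and 1300.2 CPM in the E11.5 sets (0.02 ± 0.35, adjusted p = 1). The median cell had 611 TPM of Dlk1 at E10.5 and 511 TPM at E11.5, and every cell had reads for it. Most markers of other cell types were near 0. The 14 red cell genes summed to at most 2.79 CPM in any set, the 14 macrophage genes to at most 2.57 and the 15 mesenchymal genes to at most 10.1 CPM. The 16 genes of other blood cells summed to 5.38 to 20.9 CPM, highest in E11.5 set 1, where 1 cell held 614 TPM of Pf4. The globin gene Hbb-bt, the macrophage genes Csf1r and C1qa, the endothelial genes Cdh5 and Kdr, the mesenchymal genes Col1a1 and Pdgfra and the mesothelial gene Wt1 had no read in any of the 6 sets. The endothelial list summed to 55.2 to 73.2 CPM, nearly all of it from Egfl7, which was at a mean of 60.8 CPM. The mesothelial list summed to 17.3 to 28.7 CPM at E10.5 and 38.4 to 62.4 CPM at E11.5, most of it from Alcam.

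Between E10.5 and E11.5 the cells gained transcripts of the secretory and metabolic programme of the hepatocyte, and few genes were called lower. Of 16838 genes tested, 355 rose (2.11%) and 17 fell (0.101%), and the median log2 change of all genes tested was 0. Among the rises, 285 were by at least 1 on the log2 scale, 127 by at least 2 and 65 by at least 3. The sums of the 2 stages did not overlap for 341 of the 355, against 11.2% of all genes tested that were higher without overlap and 11.1% that were lower without overlap. Changes of either sign were thus about as frequent among all genes, with 7815 positive and 8143 negative. Without E10.5 set 3, 194 genes rose and 5 fell, of which 190 and 4 were among the 355 and the 17. Of the 78 called genes taken by the naming rule, 33 lost their call without it. When only the 6 sums were fitted, in place of all 42 sums of embryo cells, 12558 genes were tested, 521 were called higher (4.15%) and 208 lower (1.66%). Of the rises, 343 were protein-coding genes and 8 were annotated pseudogenes, whose reads may come from near-identical copies.

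Most plasma carriers rose. Of the 17 genes of this list 12 rose and none fell, with a median log2 change of 1.26, and 5 rose without E10.5 set 3. Albumin (Alb, ENSMUSG00000029368, chromosome 5, 90460897 to 90476602), the main protein of adult plasma, was at 1832, 1726 and 499 CPM in the E10.5 sets and 10544, 9815 and 7866 CPM in the E11.5 sets. Each E11.5 set lay far above every E10.5 set, and E10.5 set 3 was the lowest. The change was 2.80 ± 0.39 (adjusted p = 1.88e-05), and it was 2.40 without E10.5 set 3. Alpha-fetoprotein (Afp, ENSMUSG00000054932, chromosome 5, 90490737 to 90508907), the albumin-like carrier of the fetus, lay next to Alb on the chromosome and was at 28292, 29196 and 22653 CPM in the E10.5 sets and 54117, 52702 and 55826 CPM in the E11.5 sets. It had thus been high at E10.5 already and rose by 1.02 ± 0.22 (adjusted p = 0.00538). Without E10.5 set 3 the change of Afp was 0.92 with adjusted p = 0.0722, so that call was lost. Per length the median cell held 30189 TPM of Afp and 1232 TPM of Alb at E10.5, and 51778 and 8267 TPM at E11.5.

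Apoh, a phospholipid-binding plasma protein (ENSMUSG00000000049, chromosome 11, 108343354 to 108414396), was at 5.61, 3.44 and 2.26 CPM in the E10.5 sets and 113, 82.5 and 93.8 CPM in the E11.5 sets and rose by 4.68 ± 0.47 (adjusted p = 6.75e-08). At E10.5 15 of 54 cells had no read for it, and at E11.5 2 of 36. Fabp1, which carries fatty acids inside the cell, went from 21.9 ± 10.6 to 166 ± 140.1 CPM (SD, n = 3 sets, 2.92 ± 0.61, adjusted p = 0.00353, and 0.0545 without E10.5 set 3), with a wide spread between the E11.5 sets. The other called members were Gc, which binds vitamin D, Apob and Apoa1, the main proteins of low and high density lipoproteins, the iron carrier Trf, the heme carrier Hpx, Apoc1, the retinol carrier Rbp4 and Apoa2. Gc lost its call without E10.5 set 3 (adjusted p = 0.223). The 5 genes not called were Apoe, Apom, Ttr, Apoc3 and Apoa4. Of these Apoe was at 2238, 2195 and 1967 CPM at E10.5 and 3476, 3745 and 3011 CPM at E11.5 (0.68 ± 0.20, adjusted p = 0.0854).

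Ahsg, the secreted fetuin A (ENSMUSG00000022868, chromosome 16, 22891277 to 22899449), separated nearly all single cells of the stages. It was at 26, 20.4 and 4.24 CPM in the E10.5 sets and 601, 571 and 546 CPM in the E11.5 sets, and rose by 5.08 ± 0.70 (adjusted p = 1.73e-05). The highest of 54 cells at E10.5 had 144 TPM, and 35 of 36 cells at E11.5 lay above it. Of its list of fetuins, inter-alpha inhibitors and antiproteases, 11 of 19 genes rose and none fell, with a median of 1.27 (8 rose without E10.5 set 3). The protease trap A2m rose by 3.42 ± 0.60 (adjusted p = 5.15e-04), and Pzp, a related protease trap outside the list, by 3.51 ± 0.47 (adjusted p = 1.20e-05). Itih4 and Itih3, heavy chains of the inter-alpha inhibitors, rose by 3.03 ± 0.50 and 2.62 ± 0.37. Serpina1a and Serpina1b also rose, but these near-identical copies may share reads.

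**Figure D1:**
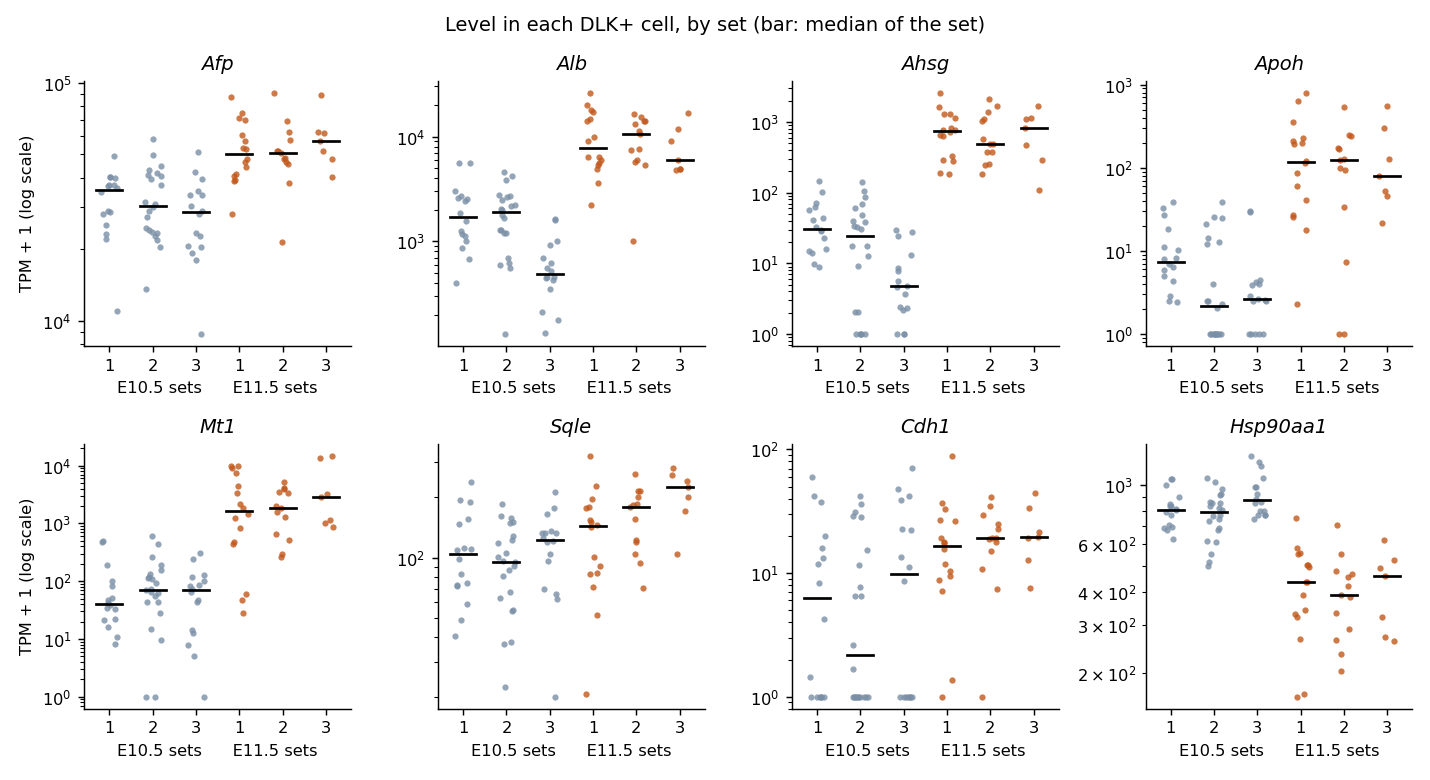
Each point is 1 DLK+ cell, with its TPM plus 1 on a log axis against its set (3 sets at E10.5 in grey-blue, 3 at E11.5 in orange) for 8 genes, and bars are set medians. For Ahsg, 35 of the 36 E11.5 cells lie above all E10.5 cells, for Afp 11 do, and for Hsp90aa1 26 of the E11.5 cells lie below all E10.5 cells.

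To show the sequence in front of genes with large rises in these lists, the 250 bases before the annotated start are printed for Ahsg and Apoh, chosen after their values were seen (RefSeq, GRCm38.p6, written 5′ to 3′ on the gene's strand). Capitals mark TGTTTGC or TGTTTAC, letters bound by forkhead (FOX) factors, searched on both strands. Positions are Ahsg chr16:22891765-22892014, plus strand and Apoh chr11:108395047-108395296, plus strand. In the gene annotation both stretches lie within longer models of the same genes.
Ahsg: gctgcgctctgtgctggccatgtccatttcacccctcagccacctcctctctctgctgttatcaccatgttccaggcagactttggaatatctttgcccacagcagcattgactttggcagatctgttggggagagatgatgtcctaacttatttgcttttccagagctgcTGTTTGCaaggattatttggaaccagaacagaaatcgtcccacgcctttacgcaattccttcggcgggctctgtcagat
Apoh: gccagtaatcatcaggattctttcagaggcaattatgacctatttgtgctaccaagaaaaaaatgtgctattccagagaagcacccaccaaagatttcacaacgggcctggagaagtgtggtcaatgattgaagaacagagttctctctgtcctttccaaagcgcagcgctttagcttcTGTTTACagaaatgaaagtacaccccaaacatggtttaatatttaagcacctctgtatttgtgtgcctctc

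The forkhead letters were in 800 of 11538 genes tested that have such a stretch in the reference table (6.93%), and in 12.3% of the 252 genes that rose and have one. Among 34 risen genes of the 4 plasma protein lists they were in 15, Alb and Afp among them. These matches describe letters and were given no test.

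Clotting factors rose in part. Of 21 genes of coagulation and fibrinolysis 11 rose and none fell, with a median of 1.25 (8 rose without E10.5 set 3). F13b, the carrier subunit of factor XIII (ENSMUSG00000026368, chromosome 1, 139501702 to 139523752), was at 0.325, 0.27 and 1.13 CPM in the E10.5 sets and 22.6, 24.3 and 10.8 CPM in the E11.5 sets. The stages did not overlap, which the rule for the largest rises required, and E11.5 set 3 was the lowest of the later sets. The change was 5.09 ± 0.69 (adjusted p = 1.40e-05). Kininogen (Kng1), the precursor of bradykinin, was at 70.3, 70.9 and 50.1 CPM in the E10.5 sets and 536, 484 and 546 CPM in the E11.5 sets and rose by 3.03 ± 0.32 (adjusted p = 1.32e-07). Factor XI (F11) rose by 3.78 ± 0.66 and protein C (Proc), a brake on clotting, by 1.87 ± 0.25. Prothrombin (F2), Fga, plasminogen (Plg), F5, F12 and Cpb2 rose too. Klkb1, the precursor of plasma kallikrein, had no read at E10.5 and 29 reads at E11.5, so that it was at least 4.01-fold higher when 3 reads per set are taken as the most that 0 reads allow. E11.5 set 3 had no read for it. The other fibrinogen chains, Fgb (0.40 ± 0.30, adjusted p = 0.808) and Fgg (0.77 ± 0.32, adjusted p = 0.386), were not called.

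Complement had the highest median of the 4 plasma protein lists, 1.95. Of 19 genes 13 rose and none fell (10 rose without E10.5 set 3). Cfi, the protease that inactivates C3b, was at 88.8, 124 and 71.6 CPM in the E10.5 sets and 474, 433 and 422 CPM in the E11.5 sets and rose by 2.22 ± 0.20 (adjusted p = 1.40e-08). Every E11.5 cell had more Cfi than the median E10.5 cell. C3 itself, the central component, went from 122 ± 31.6 to 472 ± 12.8 CPM (SD, n = 3 sets, 1.95 ± 0.28, adjusted p = 3.30e-05). The C5 gene, Hc in the mouse, rose by 2.79 ± 0.42, the lectin Mbl1 by 2.65 ± 0.41 and its protease Masp2 by 2.41 ± 0.42. C1ra, C2, C8a, C8b, C8g, Masp1 and the inhibitor Serping1 were among the others that rose.

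Among genes with at least 10 CPM at E11.5, the largest rise was that of a metallothionein. Metallothioneins are small cysteine-rich proteins that bind zinc and copper. Mt2 (ENSMUSG00000031762, chromosome 8, 94172664 to 94173568) was at 2.23, 3.51 and 1.81 CPM in the E10.5 sets and 257, 106 and 379.5 CPM in the E11.5 sets and rose by 6.60 ± 0.54 (adjusted p = 1.07e-09). Mt1, its neighbour (ENSMUSG00000031765, chromosome 8, 94179082 to 94180327), was at 24.3, 28.3 and 17.1 CPM in the E10.5 sets and 895, 578 and 1337 CPM in the E11.5 sets and rose by 5.33 ± 0.41 (adjusted p = 3.38e-10). Both genes were called in each of the 15 other settings tried. Cells differed widely: Mt1 ran from 26.8 to 14756 TPM among the E11.5 cells, with a median of 1874, against a median of 61.8 TPM at E10.5. 28 of 36 cells lay above the highest E10.5 cell for Mt1 and 19 for Mt2. A gene on the other strand, Gm45774, overlaps the stretch before Mt2, and whether reads were counted by strand is not given in the sources used here.

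The 250 bases before the RefSeq start of each gene are shown, the letters before the genes with the most marked rises, with TGCGCNC or TGCACNC, the core letters of metal response elements, in capitals on either strand (RefSeq, GRCm38.p6, Mt1 chr8:94178839-94179088, plus strand, Mt2 chr8:94172368-94172617, plus strand). In the gene annotation the Mt1 stretch overlaps an exon of Mt1 by 7 bases. All 250 bases of the Mt2 stretch lie in an exon of Gm45774.
Mt1: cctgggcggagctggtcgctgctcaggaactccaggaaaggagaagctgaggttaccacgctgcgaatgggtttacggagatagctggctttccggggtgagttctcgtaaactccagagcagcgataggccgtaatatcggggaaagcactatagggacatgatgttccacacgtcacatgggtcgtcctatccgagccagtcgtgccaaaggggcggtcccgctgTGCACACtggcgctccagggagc
Mt2: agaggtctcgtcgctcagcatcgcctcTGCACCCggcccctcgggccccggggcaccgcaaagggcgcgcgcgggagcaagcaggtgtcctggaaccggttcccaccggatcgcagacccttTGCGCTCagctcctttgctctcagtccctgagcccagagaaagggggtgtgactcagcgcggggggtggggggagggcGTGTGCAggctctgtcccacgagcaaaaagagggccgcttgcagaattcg

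Mt1 held 1 match and Mt2 held 3, and 33% of all tested genes with such a stretch held at least 1. So these short letters are common. Elsewhere in the list of metal, iron and heme handling, 5 of 20 genes rose, Mt1 and Mt2 included, and none fell (median 0.44, 4 without E10.5 set 3). Transferrin receptor 2 (Tfr2), which senses iron in hepatocytes, was at 12.9, 4.45 and 5.64 CPM at E10.5 and 47.1, 51.8 and 45 CPM at E11.5 (2.65 ± 0.47, adjusted p = 5.64e-04). The zinc importer Slc39a4 rose by 1.45 ± 0.29 and the iron exporter Slc40a1 by 1.11 ± 0.25 (adjusted p = 0.111 without E10.5 set 3). The ferritin gene Fth1 was at 1062, 1071 and 1110.4 CPM at E10.5 and 1032, 907 and 1204 CPM at E11.5 (-0.05 ± 0.19, adjusted p = 1), and the sets of both stages overlapped.

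In the fit of all sums, cholesterol synthesis had the highest share of called members of the 49 lists. That rank moved with the fit. With spike-in scaling 7 of its 18 genes were called higher, against 11 of 19 for complement. With only the 6 sums fitted 16 of 18 were, against 15 of 16 tested plasma carriers. Of 18 genes of sterol synthesis and uptake 15 rose and none fell, with a median of 1.38, and 13 rose without E10.5 set 3. Among them were Hmgcs1, which acts before mevalonate, Mvk, Mvd, Idi1 and Fdps, which turn it into farnesyl units, Fdft1, Sqle and Lss, which build lanosterol, Cyp51, Msmo1, Nsdhl, Sc5d and Dhcr7, which turn that into cholesterol, and the sterol sensor Insig1. Hmgcs1 (ENSMUSG00000093930, chromosome 13, 119690379 to 119708260) was at 223, 213 and 179 CPM in the E10.5 sets and 533, 677 and 982 CPM in the E11.5 sets (1.83 ± 0.25, adjusted p = 1.34e-05). Lss, the lanosterol synthase, was at 74, 85.5 and 71.8 CPM in the E10.5 sets and 182, 324 and 388 CPM in the E11.5 sets (1.95 ± 0.29, adjusted p = 3.94e-05). The E11.5 sets of both genes were lowest in set 1 and highest in set 3, and all lay above the E10.5 sets. The sterol factor Srebf2 (0.68 ± 0.29, adjusted p = 0.414) was not called.

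For 2 of the risen sterol genes the 250 bases before the start are printed, to set beside those of the plasma protein genes, with CCAAT, bound by NF-Y, in capitals on either strand (RefSeq, GRCm38.p6, Hmgcs1 chr13:119690101-119690350, plus strand, Mvd chr8:122443423-122443672, minus strand, neither overlapping an annotated exon).
Hmgcs1: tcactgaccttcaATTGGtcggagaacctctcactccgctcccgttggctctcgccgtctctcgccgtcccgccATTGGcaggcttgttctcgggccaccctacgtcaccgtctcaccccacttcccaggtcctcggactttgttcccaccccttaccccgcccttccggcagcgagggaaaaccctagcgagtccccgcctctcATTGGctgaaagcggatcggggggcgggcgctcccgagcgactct
Mvd: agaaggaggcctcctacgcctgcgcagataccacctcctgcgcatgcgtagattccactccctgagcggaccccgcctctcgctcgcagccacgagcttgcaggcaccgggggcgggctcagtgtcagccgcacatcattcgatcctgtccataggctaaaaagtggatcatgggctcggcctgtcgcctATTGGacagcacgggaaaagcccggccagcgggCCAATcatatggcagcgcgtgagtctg

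CCAAT was in all 11 risen sterol genes that have such a stretch in the reference table, in 43.7% of all genes that rose and in 39.9% of all genes tested. Among the 34 risen plasma protein genes 13 held it, and none of the 11 sterol genes held the forkhead letters printed above. These shares describe letters in short windows and were given no test.

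Many genes that burn fatty acids or make ketone bodies rose too. Of 16 genes 10 rose and none fell, with a median of 1.04 (5 without E10.5 set 3). Bdh1, which makes the ketone body hydroxybutyrate (ENSMUSG00000046598, chromosome 16, 31422280 to 31458901), was at 46.6, 38 and 43.1 CPM in the E10.5 sets and 302, 255 and 324 CPM in the E11.5 sets and rose by 2.79 ± 0.20 (adjusted p = 2.16e-10). The dehydrogenase Acadl rose by 1.96 ± 0.20 (adjusted p = 6.75e-08). Acadvl, Acaa2, Ehhadh, Hadha and Hadhb were among the others that rose. Ehhadh lost its call without E10.5 set 3 (adjusted p = 0.192).

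Other metabolic lists moved in part. In amino acid and urea cycle metabolism 6 of 20 rose (median 1.09, 4 without E10.5 set 3). Among them were Agxt, which clears glyoxylate (3.41 ± 0.68), Hgd and Fah of tyrosine breakdown, and Otc (1.94 ± 0.33) and Asl of the urea cycle. Hgd lost its call without E10.5 set 3 (adjusted p = 0.0875). Kmo, of tryptophan breakdown, was named by the size of its rise and went from 0.986 ± 1.07 to 26 ± 8.88 CPM (SD, n = 3 sets, 4.74 ± 0.73, adjusted p = 7.98e-05). In glucose release and glycogen 2 of 12 rose, with or without E10.5 set 3, glycogen phosphorylase Pygl (1.59 ± 0.27) among them. In drug and alcohol metabolism 4 of 22 rose, with or without that set, among them Ugt2b34 (2.44 ± 0.25) and Cyp2d10 (2.45 ± 0.48), members of gene families that may share reads. In bile acid synthesis and transport 3 of 14 rose (1 without E10.5 set 3, Abcc2). These were the canalicular pumps Abcc2 (4.82, 4.79 and 4.11 CPM at E10.5 and 48.3, 46.1 and 66.7 CPM at E11.5, 3.55 ± 0.60, adjusted p = 3.31e-04) and Abcb4 and the bile acid receptor Nr1h4. The enzymes Cyp7a1 and Cyp27a1 were at or below 5.74 CPM at both stages and were not called.

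**Figure D2:**
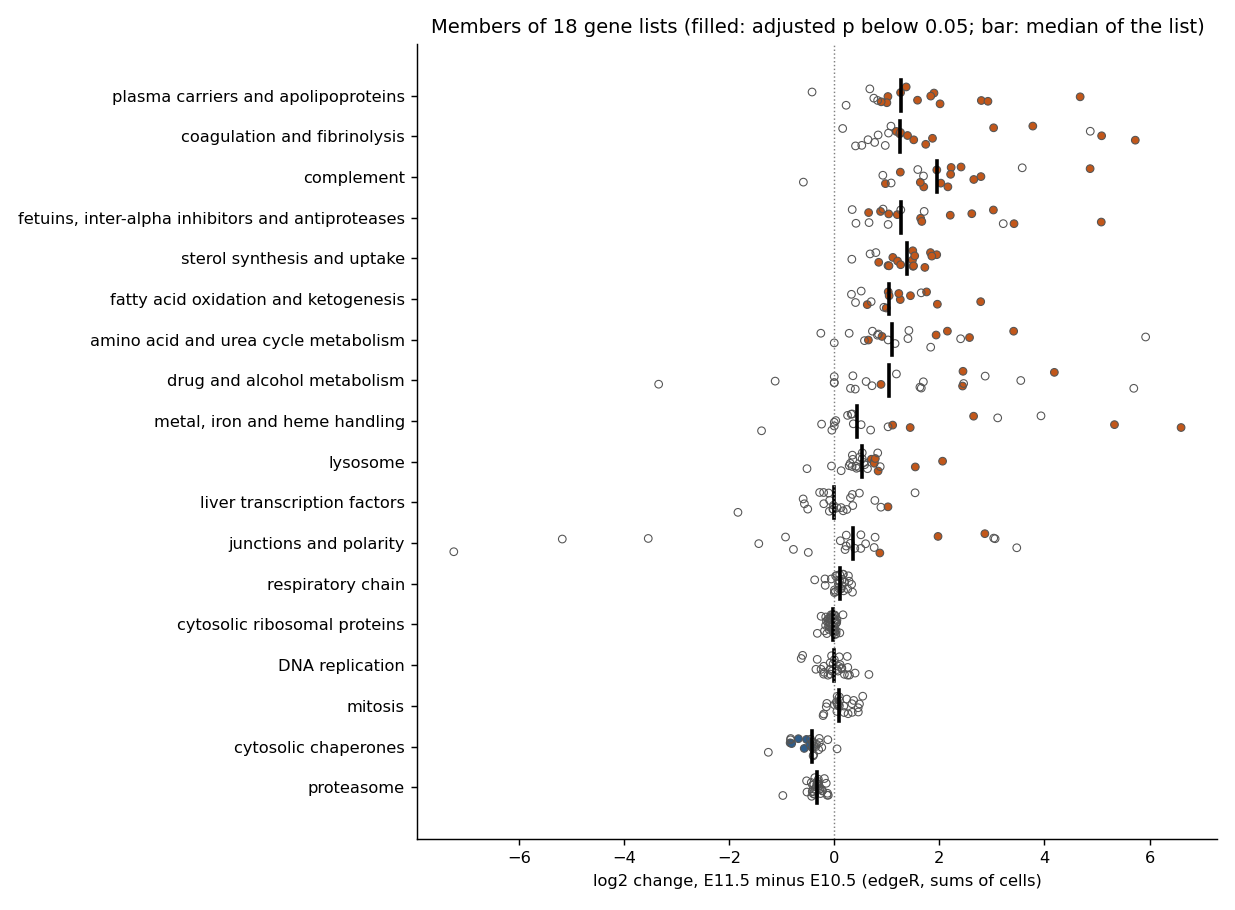
Each point is a tested gene of 1 of 18 lists, at its log2 change from E10.5 to E11.5 in the sums of cells, filled where called (orange higher, blue lower), with a bar at the list's median and a dotted line at 0, the median of all genes. The 4 plasma protein lists have medians of 1.25 to 1.95 and the sterol list of 1.38, while ribosomal proteins, DNA replication and mitosis have no called gene. Among all genes tested 2.11% rose and 0.101% fell.

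Transcription factors of the liver were not called less often than genes in general. With 2.11% of all genes tested called higher, a list of 25 would hold few calls in any case. Of 25 listed factors 1 rose, Creb3l3, a membrane-bound factor of lipid metabolism (65.6, 82.2 and 54.2 CPM at E10.5 and 153, 137 and 119.7 CPM at E11.5, 1.02 ± 0.27, adjusted p = 0.0299), and that call was lost without E10.5 set 3 (adjusted p = 0.25). Hnf4a was at 90.5, 78.3 and 86.6 CPM at E10.5 and 75.7, 104 and 73 CPM at E11.5 (-0.01 ± 0.30), Hhex went from 163 ± 14.9 to 152 ± 18.8 CPM (SD, n = 3 sets, -0.11 ± 0.19) and Prox1 was at 204, 185 and 178 CPM at E10.5 and 196, 229.9 and 244 CPM at E11.5 (0.24 ± 0.28). Foxa2, Tbx3 and Cebpa were not called either, with log2 changes of -0.09, -0.02 and -0.28. With SEs such as that of Hnf4a, small changes of these factors were not detectable.

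Genes of epithelial contacts and of the cell surface changed one by one. Of 24 junction genes 3 rose (2 without E10.5 set 3), Cldn1 of tight junctions (32.9, 29.9 and 30.8 CPM at E10.5 and 108, 129.5 and 131 CPM at E11.5, 1.97 ± 0.35, adjusted p = 4.95e-04), E-cadherin (Cdh1) and the gap junction gene Gjb2, whose call was lost without that set (adjusted p = 0.105). Cdh1 was at 23.5, 17.6 and 28.5 CPM in the E10.5 sets and 42.1, 40.5 and 44.5 CPM in the E11.5 sets and rose by 0.87 ± 0.21 (adjusted p = 0.014). It was not called when only the 6 sums were fitted (adjusted p = 0.0514). Reads of Cdh1 were found in 31 of 54 cells at E10.5 and 34 of 36 at E11.5. Of 23 basement membrane, integrin and motility genes 2 rose, Nid1, which links laminin to collagen (4.18, 2.70 and 2.26 CPM at E10.5 and 22.1, 23.7 and 19.4 CPM at E11.5, 2.84 ± 0.48, adjusted p = 3.09e-04), and the collagen Col18a1 (1.35 ± 0.29, adjusted p = 0.00467, and 0.074 without E10.5 set 3). Anxa2, a calcium-dependent membrane-binding protein (ENSMUSG00000032231, chromosome 9, 69453620 to 69491795), was at 5.57, 1.08 and 2.80 CPM in the E10.5 sets and 63.8, 43 and 103 CPM in the E11.5 sets and rose by 4.48 ± 0.41 (adjusted p = 1.40e-08). Its transcripts were found in 13 of 54 cells at E10.5 and 30 of 36 at E11.5.

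Among 22 hormone and growth factor receptors 2 rose, and 1 without E10.5 set 3. The glucagon receptor Gcgr was at 4.96, 2.70 and 2.53 CPM in the E10.5 sets and 48.4, 35.5 and 22.7 CPM in the E11.5 sets (3.39 ± 0.62, adjusted p = 8.71e-04) and had reads in 17 of 54 and 34 of 36 cells. Erbb3, a receptor of neuregulins, rose by 1.74 ± 0.47 (adjusted p = 0.0438, and 0.211 without E10.5 set 3). Of 18 factors that serve blood stem cells or act as hormones 2 rose, among them the chemokine Cxcl12, which draws blood stem cells (94, 85.4 and 66.2 CPM at E10.5 and 177, 203 and 141 CPM at E11.5, 1.09 ± 0.26, adjusted p = 0.017). Without E10.5 set 3 Cxcl12 had adjusted p = 0.174, and 1 of the 18 rose. The stem cell factor gene Kitl was at 261, 229 and 227 CPM at E10.5 and 219, 215 and 218 CPM at E11.5 and was not called (-0.14 ± 0.41).

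Of 20 imprinted genes 5 rose, and DESeq2 called the same number. Without E10.5 set 3 edgeR called none of these 5, with adjusted p = 0.096 the lowest. H19 and Igf2, expressed from opposite parental copies of 1 locus, went from 422 ± 42.7 to 813 ± 39.5 CPM and from 1188 ± 138 to 2043 ± 59.4 CPM (SD, n = 3 sets, log2 changes 0.95 ± 0.23 and 0.78 ± 0.21). Phlda2 (1.66 ± 0.41), Slc22a18 (1.45 ± 0.38) and the long RNA Meg3 (0.92 ± 0.24) were the others. Of 36 genes of the secretory pathway, the fit of all sums called the disulfide isomerase P4hb (911, 987 and 1031 CPM at E10.5 and 1539, 1472 and 1681 CPM at E11.5, 0.68 ± 0.18, adjusted p = 0.0366), a call that was lost without E10.5 set 3 (adjusted p = 0.106). DESeq2 and the 6-sum fit each called 3 of the 36 higher.

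Genes of 2 lists drawn up after the values were seen also rose. Of 26 lysosome genes 7 rose and none fell (median 0.53, 2 without E10.5 set 3), among them the proteases Ctsh (2.06 ± 0.52) and Ctsl (0.71 ± 0.17), and the membrane protein Lamp2 (0.83 ± 0.17, adjusted p = 0.00377). Ctsh lost its call without E10.5 set 3. Of 25 genes of the interferon response and antigen presentation 7 rose and none fell. Ube2l6, an enzyme that attaches ISG15, was at 7.61, 4.92 and 2.03 CPM in the E10.5 sets and 54.1, 41.7 and 25.1 CPM in the E11.5 sets (3.06 ± 0.33, adjusted p = 2.80e-07). B2m, the light chain of class I molecules, rose by 0.80 ± 0.20 (adjusted p = 0.0187, and 0.184 without E10.5 set 3). Isg15 itself was at a mean of 0.0751 CPM at E10.5 and 0 CPM at E11.5 and was not called. Without E10.5 set 3, 5 of the 25 rose and 1, Xaf1, fell.

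The falls were fewer, with a median log2 change of -0.84 against 1.66 for the rises, and 7 of the 17 were protein-folding factors. Falls of at least 3 on the log2 scale made up 6 of the 17, and 5 of the 17 genes had no read at E11.5. Of 24 cytosolic chaperones and their partners, a list drawn up after the values were seen, 7 fell and none rose, with a median of -0.42. Hsp90aa1, the inducible form of HSP90 (ENSMUSG00000021270, chromosome 12, 110690605 to 110702728), was at 1126, 1091 and 1166 CPM in the E10.5 sets and 667, 630.3 and 631 CPM in the E11.5 sets and fell (-0.81 ± 0.22, adjusted p = 0.0451). The sets of a stage lay close together. No E11.5 set reached the lowest E10.5 set, which the rule for the largest falls required. Its partners Cacybp (-0.84 ± 0.21, adjusted p = 0.0222), Dnaja1 (-0.68 ± 0.15, adjusted p = 0.00859), Stip1 (-0.57 ± 0.16, adjusted p = 0.0461) and Fkbp4 (-0.53 ± 0.14, adjusted p = 0.045) fell as well. So did Cct7 (-0.46 ± 0.13, adjusted p = 0.0487) and Cct6a (-0.44 ± 0.12, adjusted p = 0.0478), subunits of the ring that folds actin and tubulin. The adjusted p-values of these genes were close to the threshold: without E10.5 set 3 only Dnaja1 kept its call (adjusted p = 0.0423), and with only the 6 sums fitted 13 of the 24 were called lower. With spike-in scaling, which moved the median of all genes up by 0.116 on the log2 scale, the median of the chaperone list was -0.23 and 0 of the 24 were called. In single cells 26 of 36 E11.5 cells had less Hsp90aa1 than any E10.5 cell in TPM. For the ribosomal protein gene Rplp0, which was not called, 10 of 36 did so.

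Marcksl1, an actin-regulating protein of embryonic cells (ENSMUSG00000047945, chromosome 4, 129513581 to 129515985), was at 277, 280.1 and 352 CPM in the E10.5 sets and 139, 119 and 150.4 CPM in the E11.5 sets and fell (-1.16 ± 0.26, adjusted p = 0.00913, and adjusted p = 0.0821 without E10.5 set 3). 32 of 36 E11.5 cells lay below every E10.5 cell. Hmgn1, a nucleosome-binding protein (-0.53 ± 0.15, adjusted p = 0.0454), the ribosome assembly factor Pno1 (-0.79 ± 0.22, adjusted p = 0.0454) and the polymerase subunit Polr2l (-1.52 ± 0.41, adjusted p = 0.0414) completed the falls among genes with at least 10 CPM, apart from Mfap2. These 3 were not called without E10.5 set 3 (adjusted p = 0.2, 0.292 and 0.149). Mfap2, a protein of elastic microfibrils, was at 9.05, 9.51 and 11.9 CPM in the E10.5 sets and had no read in any E11.5 set, at least 42.1-fold lower. It lost its call without E10.5 set 3, with adjusted p = 0.0504. It had reads in 35 of 54 E10.5 cells. Gas6, Ap1m2, Kcnk1 and Fgd2 had no read at E11.5 either and had means of 2.28 to 2.92 CPM at E10.5. Sfrp1, a Wnt antagonist, had a single set with reads at E11.5, at 0.0633 CPM, against a mean of 1.18 CPM at E10.5. These 5 low genes were named after their values were seen.

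**Figure D3:**
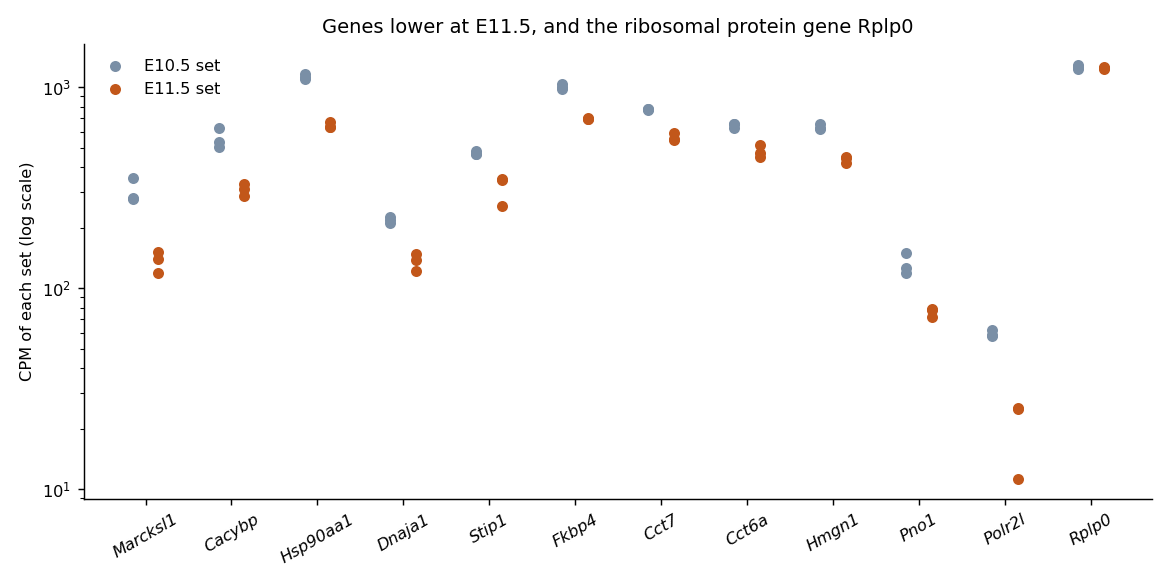
Points are CPM of the 3 sets of each stage on a log axis (grey-blue E10.5, orange E11.5) for 11 genes that fell and for the ribosomal protein gene Rplp0. The sets of the stages do not overlap for any of the 11, which the rule for the largest falls required. Of all genes tested 11.1% were lower without overlap. Rplp0 is at 1225 to 1292 CPM in the 6 sets.

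A further group of surface and embryonic genes was not called in the fit of all sums but was called lower at E11.5 when the 6 sums were fitted alone. Epcam (ENSMUSG00000045394, chromosome 17, 87635979 to 87651129) encodes the surface protein of the study's other sort gate, EpCAM+. That gate was also used at E11.5, where most of its cells were annotated as hepatoblasts. Those cells are not compared here, and no cell of that gate is listed at E10.5. Whether the sort bears on the Epcam values was not tested. In the DLK+ cells Epcam was at 26.4, 29 and 80.1 CPM in the E10.5 sets and 4.42, 5.25 and 6.81 CPM in the E11.5 sets. All E11.5 sets lay below all E10.5 sets, with E10.5 set 3 the highest. The change was -3.06 ± 0.93, adjusted p = 0.0911 in the fit of all sums and -3.07 ± 0.46, adjusted p = 0.00587 in that of the 6 sums. Epcam reads were found in 48 of 54 cells at E10.5 and 15 of 36 at E11.5, and no E11.5 cell reached the E10.5 median. Other such genes, named after their values were seen, were the claudin Cldn6 (65.1, 83.1 and 118 CPM at E10.5 and 6.90, 9.05 and 22.6 CPM at E11.5, -2.85 ± 0.43, adjusted p = 0.00592 with the 6 sums), the surface glycoprotein Cd24a (151, 162 and 208 CPM at E10.5 and 62.7, 46.2 and 61.5 CPM at E11.5, -1.63 ± 0.17, adjusted p = 0.00116), the glucose transporter Slc2a3 (from 88.8 ± 7.72 to 15.7 ± 3.69 CPM as means ± SD, -2.52 ± 0.21, adjusted p = 3.93e-04) and the progenitor factor Sox11 (47.3, 41.6 and 46.3 CPM at E10.5 and 15.1, 17 and 20.7 CPM at E11.5, -1.38 ± 0.20, adjusted p = 0.00505). In the fit of all sums their adjusted p-values were 0.0573, 0.0574, 0.234 and 0.87. The bile duct keratin Krt19 was at 1.11, 1.92 and 4.38 CPM at E10.5 and 0.795, 0.696 and 0 CPM at E11.5, Sox9 at 3.66, 10.9 and 8.03 CPM at E10.5 and 3.23, 3.48 and 25.1 CPM at E11.5 and Spp1 at 2.37, 0.101 and 0.226 CPM at E10.5 and 1.14, 0.127 and 0.128 CPM at E11.5. None of the 3 was called in the fit of all sums, and Spp1 was not tested with the 6 sums, where Krt19 and Sox9 were not called. E11.5 set 3 was the highest of all sets for Sox9.

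Lists of growth and of the core machinery of the cell gave no called gene in the fit of all sums. As 2.11% of all genes tested rose and 0.101% fell, few calls would be found in lists of this size in any case. Of 30 DNA replication genes, 25 mitosis genes and 45 cytosolic ribosomal protein genes none was called by edgeR. At an unadjusted p under 0.05 none of the first and second list and 1 of the third, lower at E11.5, would pass, and DESeq2 called 0, 0 and 1. The replication gene Mcm7 was at 306, 286 and 331 CPM at E10.5 and 374, 246 and 348 CPM at E11.5 and the mitotic gene Top2a at 403, 325 and 152 CPM at E10.5 and 265, 388 and 485 CPM at E11.5, with sets of both stages overlapping and SEs of 0.32 and 0.72. The ribosomal protein gene Rplp0 was at 1265, 1292 and 1225 CPM at E10.5 and 1260.2, 1242 and 1232 CPM at E11.5 (-0.02 ± 0.10). Of 30 respiratory chain genes none was called, 4 were higher and 1 lower at an unadjusted p under 0.05, and DESeq2 called none. Of 25 ribosome biogenesis genes none was called by edgeR, 4 were lower at an unadjusted p under 0.05, DESeq2 called 1 and the 6-sum fit 2, lower. Ncl, the nucleolar protein nucleolin, was at 1209, 1172 and 1502 CPM at E10.5 and 772, 814 and 1056 CPM at E11.5 (-0.56 ± 0.17, adjusted p = 0.0873). Of 31 proteasome genes none was called by edgeR, 12 were lower at an unadjusted p under 0.05, DESeq2 called 4 lower and the 6-sum fit 5.

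Genes of signalling pathways and their targets gave no call in the fit of all sums. That fit called 2.11% of all genes higher and 0.101% lower, so short lists would hold few calls in any case. The lists are Wnt targets, TGF-beta and BMP response, the Notch pathway, ERK feedback and targets, and YAP targets. They hold 13, 14, 14, 14 and 14 tested genes, and edgeR and DESeq2 called none of them. At an unadjusted p under 0.05, 1 gene each of the TGF-beta and BMP, ERK and YAP lists was lower and none of the others passed. The 6-sum fit called 1 gene lower in each of the Wnt, TGF-beta and BMP, and YAP lists. In the bulk libraries of DLK+ cells 3, 2, 3, 1 and 2 genes of the 5 lists were called lower, and 1 Wnt target higher. The Wnt target Lgr5 was at 71.8, 82.2 and 101 CPM at E10.5 and 64.5, 36 and 79.5 CPM at E11.5 (-0.50 ± 0.93, adjusted p = 1), the Notch target Hes1 at 76.3, 64.2 and 57.6 CPM at E10.5 and 57.3, 60.3 and 56.1 CPM at E11.5 and the ERK target Dusp6 at 85.8, 70.3 and 89.1 CPM at E10.5 and 49.2, 70.3 and 123 CPM at E11.5. Of 14 tested oncofetal and embryonic regulators none was called by edgeR or DESeq2 and 1 was lower at an unadjusted p under 0.05. Many of these genes had few reads. In simulated data the same test recovered 26% of genes changed by 2-fold and 71% of those changed by 4-fold. The changed genes there were drawn only from those above a minimum mean CPM, so these rates do not cover genes with fewer reads.

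Bulk libraries of DLK+ cells, which share no sample with the single cells, gave a second measure of the same day, with 2 libraries per stage. There, 1458 of 15275 genes were called higher at E11.5 (9.55%) and 584 lower (3.82%). All 355 genes that rose in the cells were tested in bulk. Of these 351 had a positive change there and 305 were called higher (85.9%), none lower. Their median log2 change was 1.48 in bulk and 1.66 in the cells. In the other direction, 23.1% of the 1319 bulk rises tested in the cells were called there. Of the 17 falls 16 had a negative change in bulk and 4 were called lower, and of the 208 genes lower in the 6-sum fit 189 of 202 tested had a negative change and 44 were called lower.

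Single genes show where the 2 measures met and where they parted. Ahsg was at 14.6 and 11 CPM at E10.5 and 341 and 279 CPM at E11.5 in bulk (4.60 ± 0.40, adjusted p = 8.45e-06), and Alb at 1754 and 1249.7 CPM at E10.5 and 13778 and 11687 CPM at E11.5 in bulk (3.08 ± 0.41, adjusted p = 2.04e-04). Epcam was at 39.1 and 48.3 CPM at E10.5 and 6.95 and 5.92 CPM at E11.5 in bulk (-2.76 ± 0.28, adjusted p = 3.14e-05), so the surface gene not called in the fit of all single-cell sums was called lower in bulk. Mt1 rose in bulk by 4.28 ± 0.31 and all 15 sterol genes that rose in the cells were called higher there. Anxa2, in contrast, was at 18.1 and 21.7 CPM at E10.5 and 30.4 and 23.8 CPM at E11.5 in bulk (0.45 ± 0.19, adjusted p = 0.154), a far higher E10.5 level than the 3.15 CPM of the single cells. Nid1 was at 34.8 and 38.4 CPM at E10.5 and 64.8 and 48.3 CPM at E11.5 in bulk (0.63 ± 0.35, adjusted p = 0.272). Mfap2 had 5.10 and 3.78 CPM in the E11.5 bulk libraries and was not called there (-1.79 ± 0.73, adjusted p = 0.127). None of the 7 chaperones that fell in the cells was called in bulk by edgeR, where Hsp90aa1 changed by -0.44 ± 0.17, adjusted p = 0.107. The bulk libraries differ from the cells in their markers: 8 of 10 tested genes of the other blood list and 5 of 8 red cell genes were called higher at E11.5 in bulk and none in the single cells. Their part in the bulk values was not tested. In bulk samples fewer cells of a type and less RNA per cell cannot be told apart.

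**Figure D4:**
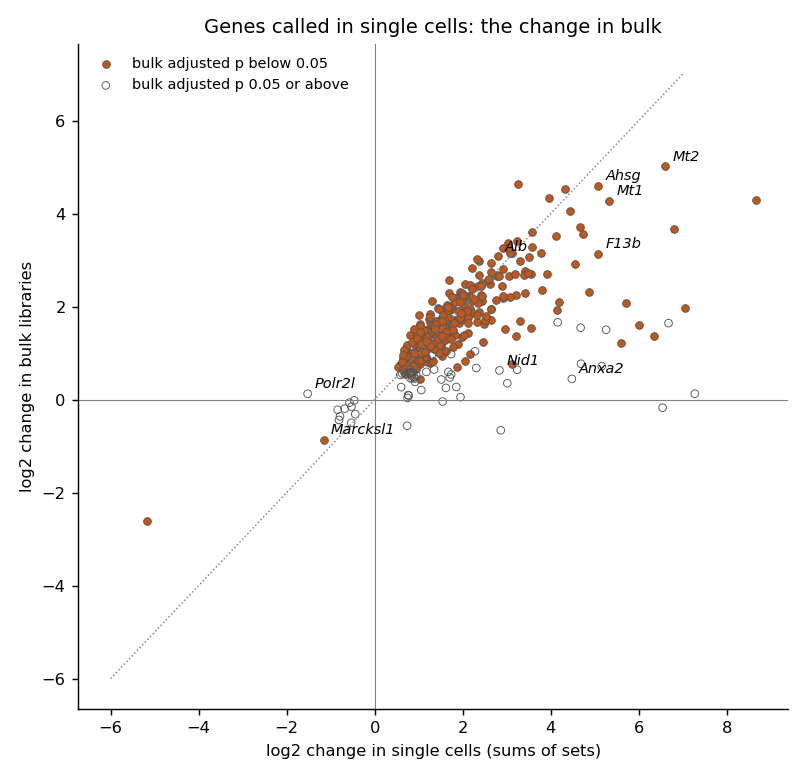
Each point is a gene called in the single cells with reads at both stages, with its log2 change in the sums of cells on the horizontal axis and in the bulk libraries on the vertical axis, filled where called in bulk, and a dotted line of equal change. Of all 355 rises, 351 are above 0 in bulk, while Anxa2 is at 0.45, Nid1 at 0.63 and Polr2l, which fell in the cells, at 0.13.

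Within a stage the cells varied by list. As a score, log2(TPM + 1) was averaged over the list's genes in each cell, with no test, since an exact permutation test of 3 sets against 3 cannot go below 0.1. The fatty acid oxidation score ran from 4.16 to 5.91 at E10.5 and from 5.73 to 6.99 at E11.5, and 50 of 54 E10.5 cells lay below every E11.5 cell. For complement 44 of 54 did so and for the sterol list 12. The sterol score of E11.5 cells had medians of 6.81, 7.46 and 7.72 in sets 1 to 3, against 6.12 to 6.27 in the E10.5 sets. The mitosis score spread widely in both stages, from 2.03 to 7.26 at E10.5 and from 1.32 to 7.0 at E11.5. For the chaperone score 21 of 36 E11.5 cells lay below every E10.5 cell. Lists with no called gene in the fit of all sums gave similar counts. These were 26 for the proteasome, 25 for heterogeneous ribonucleoproteins, 17 for cytosolic ribosomal proteins and 15 for the respiratory chain. Lower scores in TPM were thus not particular to the chaperones.

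In DLK+ cells of later stages, whose sums entered the fit but were compared with no group here, Alb went from 9409 CPM at E11.5 to 22351 ± 1523 at E12.5, 40651 ± 8979 at E14.5 and 161111 ± 11239 CPM at E17.5 (mean ± SD over sets). Ahsg reached 5515 ± 3533 at E14.5 and 68263 ± 11844 CPM at E17.5. Mt1 was at 2067 ± 1211 CPM at E12.5 and 4931 ± 1024 at E13.5, and at 5203 ± 1897 at E17.5. The sterol gene Hmgcs1 was at 205 CPM at E10.5, 731 at E11.5, 1552 ± 51.5 at E15.5, its highest mean, and 976 ± 149 at E17.5. The median member of the sterol list, on the log2(CPM + 1) scale, was at 7.23, 8.46, 9.16 and 8.73 at E10.5, E11.5, E15.5 and E17.5. That of the bile acid list, at E10.5, E11.5 and E17.5, was at 0.62, 1.11 and 7.0. Hsp90aa1 was at 643 CPM at E11.5, 582 ± 8.88 at E12.5, 645 ± 10.2 at E13.5 and 159.9 ± 39.4 at E17.5. Marcksl1 was at 7.16 ± 3.60 CPM at E17.5. E12.5 had fewer sets than E10.5 or E11.5, so its SDs rest on fewer values.

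**Figure D5:**
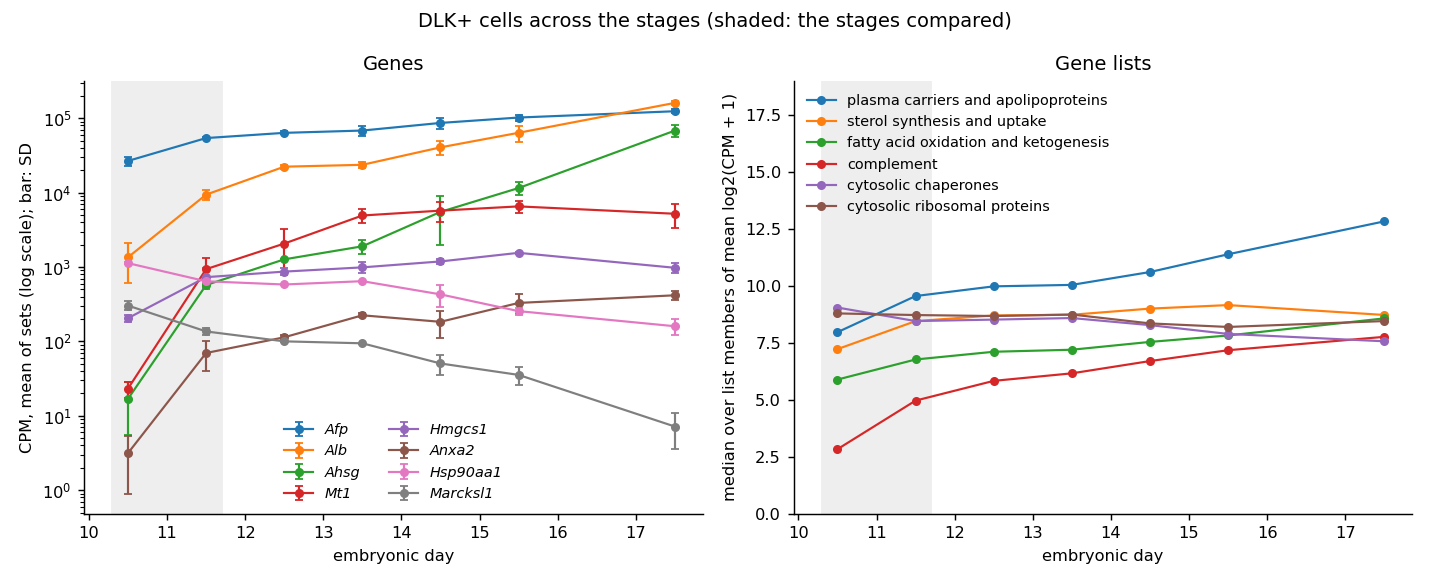
Left, CPM (log axis, mean of sets with SD bars) of 8 genes in DLK+ cells against embryonic day. Right, the median over list members of mean log2(CPM + 1) for 6 lists, with the stages compared here shaded: the sterol list goes from 7.23 to 8.46 between E10.5 and E11.5 and is at 9.16 at E15.5 and 8.73 at E17.5.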

How the data were processed

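Read counts per gene and cell, and per gene and bulk library, were used as the authors deposited them. Per the submitters' processing notes TopHat2 2.1.0, Bowtie2 and HTSeq 0.6.0 were used with GRCm38. Annotation and strand setting are not given in the sources used here, so reads of overlapping or antisense genes cannot be told apart. Smart-seq2 reads carry no molecular identifiers, so floors cover counting error only. The authors also deposited gene lengths, from which TPM was computed without the 92 spike-in RNAs.

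Counts of 443 of 447 embryo cells were summed per group and set into 42 sums (at least 2 cells each), filtered with filterByExpr (minimum count 10), scaled by TMM and fitted with edgeR 4.0.16 (quasi-likelihood, Benjamini-Hochberg adjustment, threshold 0.05) in R 4.3.3. The 18 bulk libraries were fitted alike, with 14650472 to 20781478 reads in the 4 compared. DESeq2 1.42.0, other scalings, filters, sample choices, a replicate block and leaving out each set were alternatives. In data simulated for the comparison of cells, with 200 of 16838 genes changed, 26% of genes changed 2-fold and 71% of those changed 4-fold were recovered, and 4 unchanged genes were called. The changed genes were drawn only from those above a minimum mean CPM. Apart from their change at E11.5, each gene had the same simulated mean in all sums. Same-numbered sets did not deviate together (correlations -0.02, 0.01 and 0.04), so numbers were not used to pair them.

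Members, 44 lists and tests were chosen with earlier results of these data known, and 5 further lists (cytosolic chaperones, heterogeneous ribonucleoproteins, proteasome, lysosome, interferon response and antigen presentation) after their values were seen. Named genes were the 15 largest rises and up to 15 largest falls among called genes with at least 10 CPM and no overlap, from each list 4 called members at most (the 2 highest where none was called), and the sort and lineage markers. Genes named beyond this were chosen after their values were seen. 145 genes share a symbol with another. Promoter stretches come from RefSeq (GRCm38.p6), with 11538 of 16828 symbols matched. Values of some members of the lists are not reported here.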

Additional observations from a re-analysis of the deposited data

How the results depend on the processing

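Of the 372 genes called in the cells, 355 were higher, and this split moved most with the samples that entered the fit. With only the 6 sums 729 genes were called, 208 of them lower (71.5% higher). DESeq2 called 592, 537 higher and 55 lower. Spike-in scaling left 198, 194 higher and 4 lower. The falls numbered 10 with each cell scaled to the same total and 30 with the DLK+ sums of all stages, an alternative chosen after seeing the data. Leaving out 1 set gave 199 to 320 calls, with 194 to 314 higher and 5 to 8 lower, lowest without E10.5 set 3. A replicate block gave 366 higher and 22 lower with all sums, and with the 6 sums 409 higher and 117 lower. In bulk, fitting only the 4 libraries called 5621 genes, 2910 higher and 2711 lower, and no filter gave 986 lower. A replicate block there gave 1385 higher and 563 lower. Leaving out 1 bulk library gave 651 to 1031 calls, with 566 to 842 higher and 85 to 214 lower, and a lone library was then assumed to vary like the other stages. No named gene reversed, and 39 of the 78 called named genes were called under each of the 15 alternatives for the cells that tested them. The causes of these shifts were not tested. Sets of 7 to 22 cells limit what falls at low levels can show.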
